A study of Mus musculus with 12 samples.

Results

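The genes described here encode the matrix metalloproteases (MMPs), the ADAMTS proteases, the ADAMTS-like proteins and the tissue inhibitors of metalloproteases (TIMPs). They were taken from a table of read counts per gene as every row whose symbol starts with Mmp, Timp, Adamts or Adamtsl followed by its number and whose mean raw count over the 12 libraries was 10 or more. Of 51 such symbols among the 55401 genes of the table, 39 met the count minimum: 14 MMP, 4 TIMP, 16 ADAMTS and 5 ADAMTSL genes. The other 12 were Mmp1a, Mmp1b, Mmp7, Mmp10 and Mmp20, with no count in any library, and Mmp8, Mmp21, Mmp24, Mmp27, Adamts13, Adamts16 and Adamts18. Mmp25, with a mean of 11.5 counts, lay just inside the minimum and Mmp27, with 4.67, just outside it. All 39 genes also passed the low-count filter of the test.

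MMPs are zinc proteases that cut collagens, gelatin, elastin and other matrix proteins, and most are made as inactive precursors that another protease must open. TIMPs bind the active site and block it, and the pair of Timp2 and the membrane-bound Mmp14 is also the machinery that activates the precursor of Mmp2. ADAMTS proteases are secreted enzymes that trim procollagens, cut proteoglycans such as versican or act on fibrillin fibres, while ADAMTS-like proteins share their accessory domains and lack the protease. In the pressure-loaded heart these families are known for their part in the turnover of the interstitial matrix, which is made mostly by fibroblasts.

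RNA came from the left ventricle of mice 15 weeks old, 5 weeks after surgery at 10 weeks. Each of 4 groups had 3 libraries: Prkca T497A mice after transverse aortic constriction (TAC), WT mice after TAC, Prkca T497A mice after sham surgery and WT mice after sham surgery. TAC ties the aortic arch against a 27-gauge needle and so loads the ventricle with pressure. T497A replaces a threonine in protein kinase C alpha that is a site of phosphorylation, and the series title concerns ablation of that phosphorylation by base editing. Each of the 12 library titles carries a heart number of its own, and a p-value here measures the spread among these libraries. The labels name no founder line. A base substitution need not change the count of Prkca, which therefore does not check the genotype labels.

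The labels give cardiomyocyte as the cell type and left ventricle as the tissue, with no sorting step. Transcripts of other cells were abundant. The summed level of 10 cardiomyocyte markers was 67744 to 72714 CPM (counts relative to the TMM-adjusted total of each library) in T497A TAC, 55024 to 64793 in WT TAC, 72555 to 85989 in T497A sham and 79328 to 92051 in WT sham. Beside it, 12 fibroblast markers summed to 2277 to 2404, 2678 to 3049, 1846 to 2161 and 1861 to 1906 CPM in the same order of groups. For 12 markers of activated fibroblasts the sums were 314 to 566, 1133 to 1375, 208 to 294 and 193 to 215 CPM, and for 12 macrophage markers 265 to 354, 320.2 to 424, 216 to 282 and 191 to 234 CPM. In bulk tissue more cells of a type and more RNA per cell cannot be told apart. The libraries held 36862004 to 46898344 counts each, with a biological coefficient of variation of 17.2%.

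Per length of annotated exon, Timp2, Timp3, Mmp2, Mmp15 and Adamtsl5 stood highest among the 39 genes. In CPM per kb of exon, Timp2 averaged 32.9 in T497A TAC, 40.8 in WT TAC, 30.1 in T497A sham and 28.0 in WT sham. Timp3, on the same scale and in the same order, averaged 23.9, 25.0, 27.3 and 26.0. Mmp2 averaged 22.1, 38.7, 15.1 and 14.8 CPM per kb, so it stood above Mmp15 in both TAC groups and below it in both sham groups. Mmp15 averaged 19.0, 14.4, 21.7 and 22.4.

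Summed over its members, each of the 4 families was highest in WT TAC. The 14 MMP genes summed to 51.7, 60.2 and 46.7 CPM per kb in T497A TAC, 67.6, 65.0 and 76.3 in WT TAC, 41.5, 51.3 and 45.6 in T497A sham, against 42.5, 45.9 and 46.9 in WT sham. No WT TAC library overlapped a library of another group. The 4 TIMP genes summed to 50.1, 67.2 and 73.8 CPM per kb in T497A TAC, 77.4, 89.5 and 83.2 in WT TAC, 76.1, 49.8 and 64.2 in T497A sham, against 71.5, 52.7 and 57.5 in WT sham. Here too the WT TAC libraries lay above all others, the nearest being a T497A sham library. The 16 ADAMTS genes summed to 22.3 ± 2.12 CPM per kb in T497A TAC, 32.5 ± 5.06 in WT TAC, 21.4 ± 0.583 in T497A sham and 22.4 ± 1.40 in WT sham (SD, n = 3 each). The 5 ADAMTSL genes summed to 26.4 ± 3.08, 36.0 ± 3.60, 24.3 ± 2.19 and 24.1 ± 1.47 CPM per kb (SD, n = 3 each). These sums are descriptions with no test. The share of counts from mitochondrially encoded genes, which also set WT TAC apart, was 24.6 to 26.1% in T497A TAC, 19.6 to 20.9% in WT TAC, 28.3 to 30.9% in T497A sham and 25.1 to 29.0% in WT sham. Its part in the family sums was not tested. With those genes left out of the scaling, each of the counts of called members given below was the same.

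The ratio of the MMP sum to the TIMP sum was 1.03, 0.896 and 0.633 in T497A TAC, 0.873, 0.726 and 0.917 in WT TAC, 0.545, 1.03 and 0.711 in T497A sham, against 0.594, 0.870 and 0.817 in WT sham. Its ranges overlapped between all groups. The make-up of the sums is given without a test. Mmp2 held 41.4 ± 5.24% of the MMP sum in T497A TAC, 55.4 ± 1.70% in WT TAC, 32.6 ± 3.11% in T497A sham and 32.7 ± 2.38% in WT sham (SD, n = 3 each), while Mmp15 held 36.3 ± 4.16%, 20.7 ± 3.16%, 47.4 ± 4.91% and 49.7 ± 1.83%. Timp1 held 6.44 ± 2.12% of the TIMP sum in T497A TAC, 16.1 ± 5.07% in WT TAC, 2.02 ± 0.543% in T497A sham and 2.33 ± 1.29% in WT sham (SD, n = 3 each).

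**Figure D1:**
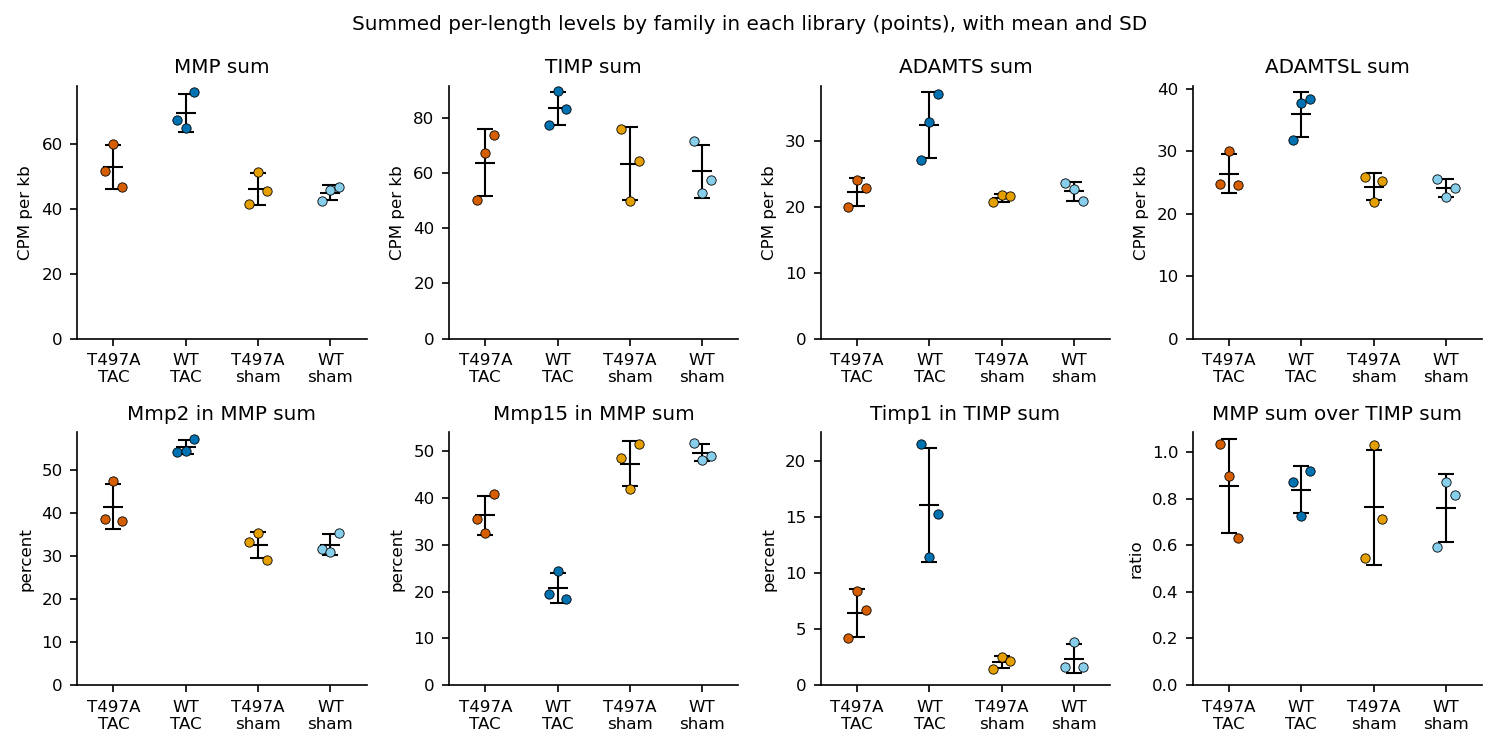
Summed level of each family in CPM per kb of exon, the share of Mmp2, Mmp15 and Timp1 in their family's sum in percent, and the ratio of the MMP sum to the TIMP sum, in each of 12 libraries (points) with mean and SD (bars). The 3 WT TAC libraries stand above all others in the MMP and TIMP sums, while the ratio overlaps between all groups.

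Members of every family rose after TAC in WT hearts. Timp1, a secreted inhibitor, rose 9.67-fold, Adamtsl2 7.40-fold and the proteoglycan-cleaving Adamts8 5.09-fold, and the gelatinase gene Mmp2 rose 2.62-fold. Mmp15, a membrane-bound MMP, and Adamts7, which cuts the cartilage oligomeric matrix protein, fell. By the quasi-likelihood test of edgeR, with p-values adjusted after Benjamini-Hochberg over 15764 genes and called under 0.05, 13 of the 39 genes were higher and 2 lower, beside 12.3% and 12.6% of all tested genes. The median log2 fold change of the 39 was 0.53, against 0.01 over all genes tested. By family the calls were 4 higher and 1 lower of 14 MMP genes, 2 higher of 4 TIMP genes, 5 higher and 1 lower of 16 ADAMTS genes and 2 higher of 5 ADAMTSL genes. The TAC and sham libraries were fully separate for 19 of the 39, beside 42.2% of all tested genes.

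Markers of fibroblasts and macrophages moved in the same comparison: 6 of 12 fibroblast markers were higher and 1 lower, 10 of 12 markers of activated fibroblasts and 10 of 12 macrophage markers were higher, and 8 of 10 cardiomyocyte markers were lower. All 12 markers of each of the first 3 lists were expressed above the low-count filter. Their part in the values of the protease genes was not tested.

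TAC in T497A hearts gave no call among the 39 genes. Timp1 lay highest by size among those whose libraries did not overlap, at 3.41-fold (log2 fold change 1.77 ± 0.37 SE, edgeR adjusted p = 0.107), followed by Adamtsl2 at 1.99-fold (0.99 ± 0.32, edgeR adjusted p = 0.283). The count of 0 stood beside 0.114% of all tested genes called in either direction, and 6 of the 39 had an unadjusted p under 0.05, beside 11.7% of all tested genes. DESeq2 called 1 gene, Timp1, beside 1.96% of all genes to which it gave an adjusted p, and limma-voom called 0 beside 0.0825%. Without T497A TAC replicate 1, in which Timp1 was lowest of its group, edgeR called Timp1 too. The median log2 fold change of the 39 was 0.21, against 0.01 over all genes, and 7 of 39 had libraries that did not overlap, beside 15.4% of all tested genes.

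After sham surgery 0 of the 39 genes were called between T497A and WT with edgeR, 0 had an unadjusted p under 0.05, and DESeq2 and limma-voom also called 0. Over all genes the shares were 0.0254% called by edgeR, 3.03% with an unadjusted p under 0.05, 0.0698% called by DESeq2 and 0.0127% by limma-voom. Mmp16 and Adamts17 had libraries that did not overlap, 2 of 39 beside 8.21% of all tested genes. Mmp16, a membrane-type MMP, was at 1.22, 1.39 and 0.968 CPM in T497A sham and 0.923, 0.760 and 0.784 CPM in WT sham (log2 fold change 0.53 ± 0.31, edgeR adjusted p = 1). Adamts17 was at 0.299, 0.361 and 0.484 CPM in T497A sham and 0.877, 0.916 and 0.581 CPM in WT sham (-1.05 ± 0.51, edgeR adjusted p = 1).

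After TAC the genotypes differed in 9 genes. Timp1, Timp2, Mmp2, Mmp23, Adamts2, Adamts8, Adamtsl2 and Adamtsl5 were lower in T497A TAC than in WT TAC, and Mmp15 was higher. These 8 lower and 1 higher of 39 stood beside 4.06% and 4.64% of all tested genes, and the median log2 fold change was -0.30, against 0.00 over all genes. In 12 of the 39 the libraries did not overlap, beside 28% of all tested genes. This comparison uses the same WT TAC libraries as the TAC effect in WT, so the values of both are given side by side below and not as separate evidence. Of the marker lists, 7 of 12 activated fibroblast markers and 4 of 12 fibroblast markers were lower in T497A TAC and 1 fibroblast marker higher, 1 of 12 macrophage markers was lower, and 4 of 10 cardiomyocyte markers were higher. Their part was not tested. Without T497A TAC replicate 1 the count of 9 was 5, and without T497A TAC replicate 3 or WT TAC replicate 3 it was 4. With only the T497A TAC and WT TAC libraries fitted, the calls of Timp1, Timp2 and Adamts2 were lost (edgeR adjusted p = 0.0507, 0.0616 and 0.0733). Of the 12 fits that each left out 1 library, the edgeR call held in all 12 for Timp1, Mmp15 and Mmp23, in 11 for Adamts8 and Adamtsl5, in 9 for Mmp2, in 8 for Timp2 and Adamtsl2, and in 7 for Adamts2.

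Whether the TAC effect itself differed between the genotypes was tested as an interaction, which subtracts the TAC effect of WT from that of T497A. Mmp23 passed, 1 of 39 and lower, beside 0.679% of all tested genes called lower and 0.894% called higher. The median over the 39 was -0.42, against 0.00 over all genes, and 12 of the 39 had an unadjusted p under 0.05, beside 16.8% of all tested genes. DESeq2 called 9 of the 36 members to which it gave an adjusted p, beside 6.61% of all such genes. Mmp15 was higher among these 9, and Mmp23, Mmp2, Timp1, Timp2, Adamts2, Adamts8, Adamtsl2 and Adamtsl5 were lower. Limma-voom called 2 of 39 beside 1.42%, Mmp23 and Adamtsl2. EdgeR without the low-count filter called 5 of 39 beside 2.99%, which were Mmp23, Mmp15, Timp2, Adamts8 and Adamtsl5. The edgeR call of Mmp23 was lost in 11 of the 12 fits that each left out 1 library. Of the marker lists, 2 of 12 fibroblast markers and 1 of 12 activated fibroblast markers were called lower, and 1 of 12 fibroblast, 1 of 10 smooth muscle and pericyte and 1 of 10 cardiomyocyte markers higher. Their part was not tested.

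**Figure D2:**
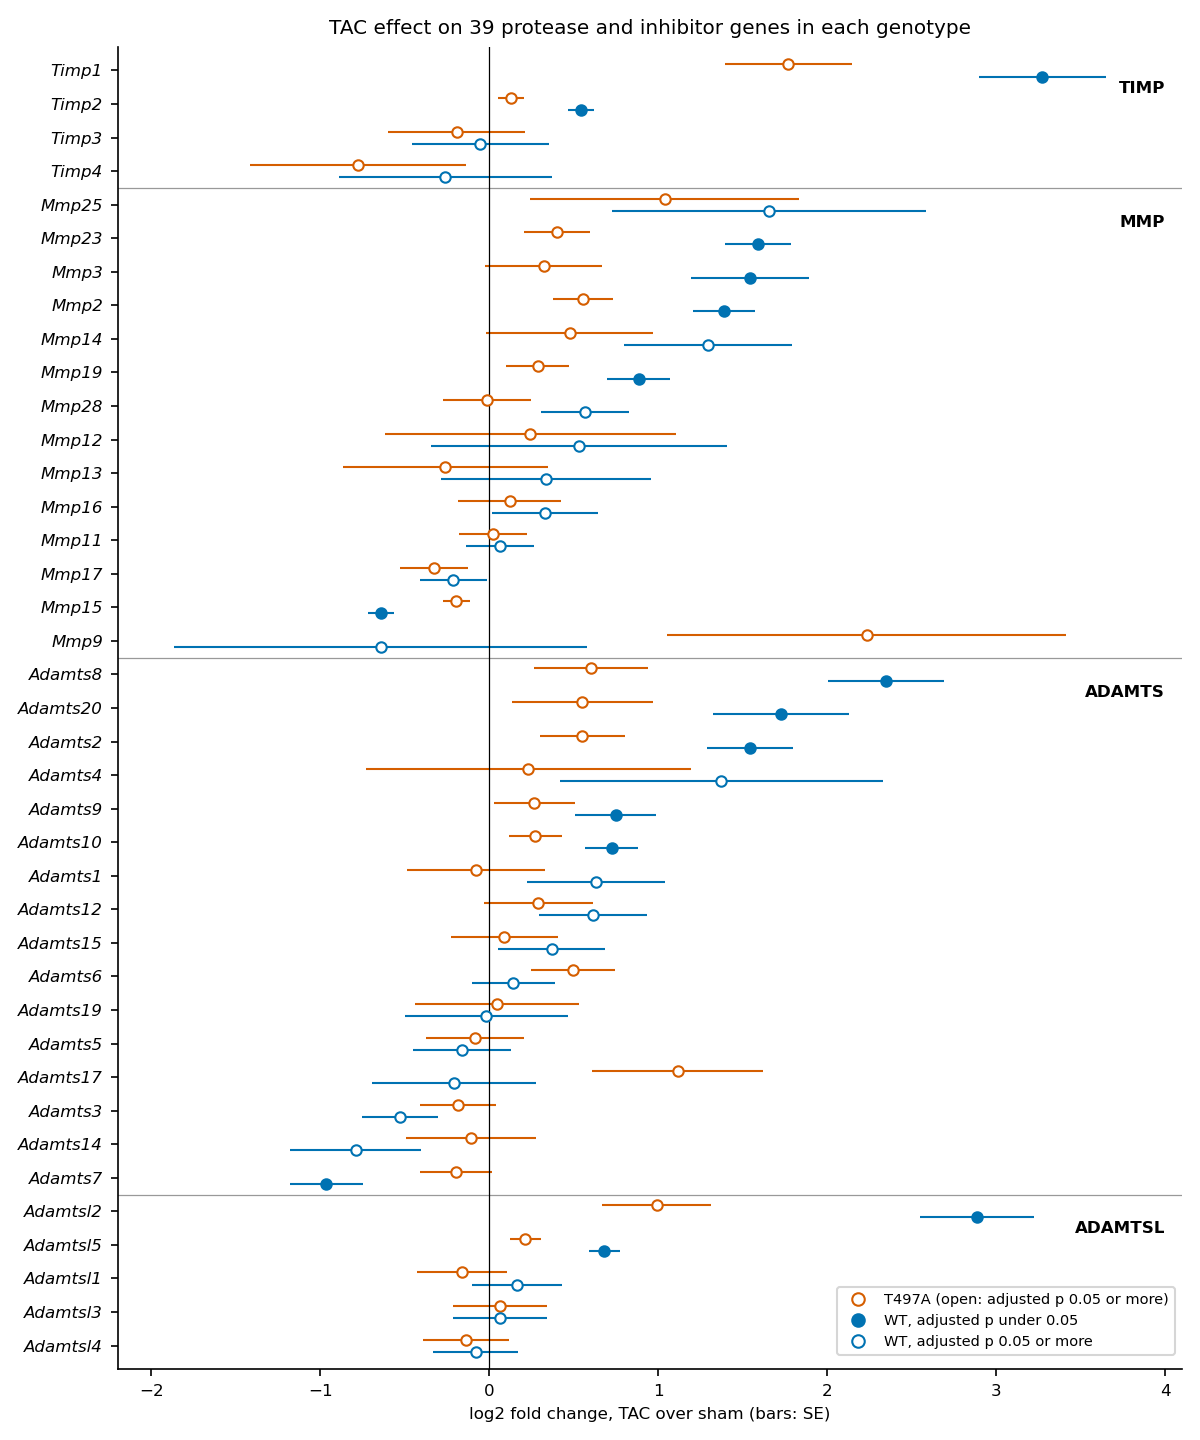
Log2 fold change of TAC over sham (points, with SE) for each of the 39 genes, with T497A above WT for each gene and the families separated by lines; filled points have an edgeR adjusted p under 0.05. The 15 filled points are all of WT, and Timp1, Adamtsl2 and Adamts8 lie farthest to the right among them.

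Among the inhibitors, Timp1 (ENSMUSG00000001131.11, GRCm38 chrX:20870166-20874735, plus strand) is the soluble TIMP best known as induced in injured and fibrotic tissue. It was at 1.87, 5.03 and 4.38 CPM in T497A TAC, 14.8, 9.10 and 11.3 in WT TAC, 0.970, 1.11 and 1.21 in T497A sham, against 0.993, 1.79 and 0.813 in WT sham. All WT TAC libraries lay above all T497A TAC libraries, which in turn lay above every sham library, though T497A TAC replicate 1 came close to the highest WT sham library. The log2 fold change was 1.77 ± 0.37 SE for TAC in T497A and 3.27 ± 0.38 for TAC in WT, where the edgeR adjusted p was 9.14e-05. Between T497A TAC and WT TAC it was -1.64 ± 0.34 (edgeR adjusted p = 0.0136), and the interaction was -1.50 ± 0.52 (edgeR adjusted p = 0.165). The gene lies inside Syn1 on the opposite strand, with no exon shared.

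Timp2 (GRCm38 chr11:118301069-118355740, minus strand), the inhibitor that also takes part in Mmp2 activation, was at 118, 144 and 122 CPM in T497A TAC, 160.0, 156 and 161 in WT TAC, 116, 123 and 113 in T497A sham, against 114, 108 and 105 in WT sham. The WT TAC libraries stood within a narrow band above all others. Timp2 rose 1.46-fold in WT (0.54 ± 0.08, edgeR adjusted p = 0.000214) and was lower in T497A TAC than in WT TAC (-0.31 ± 0.08, edgeR adjusted p = 0.0229). In T497A the TAC effect was 0.13 ± 0.08 with overlapping libraries.

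Timp3, the inhibitor that stays bound to the matrix and also blocks ADAMTS proteases, was at 126, 184 and 273 CPM in T497A TAC, 144, 262 and 206 in WT TAC, 307, 124 and 235 in T497A sham, against 269, 155 and 211 in WT sham. Timp4, which among the TIMPs is known for its abundance in heart, was at 13.3, 11.5 and 24.3 CPM in T497A TAC, 11.7, 41.7 and 24.0 in WT TAC, 43.5, 10.4 and 30.0 in T497A sham, against 47.6, 22.9 and 22.0 in WT sham. Libraries within a group of either gene differed by more than the groups did. No comparison called them: the TAC effect in WT was -0.05 ± 0.41 for Timp3 and -0.26 ± 0.63 for Timp4 on the log2 scale, and in T497A it was -0.19 ± 0.41 and -0.78 ± 0.64. Timp3 lies inside Syn3 and Timp4 inside Syn2, each on the opposite strand. Syn3 shares 21.3% of the exon length of Timp3 and had a mean of 19.8 counts.

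**Figure D3:**
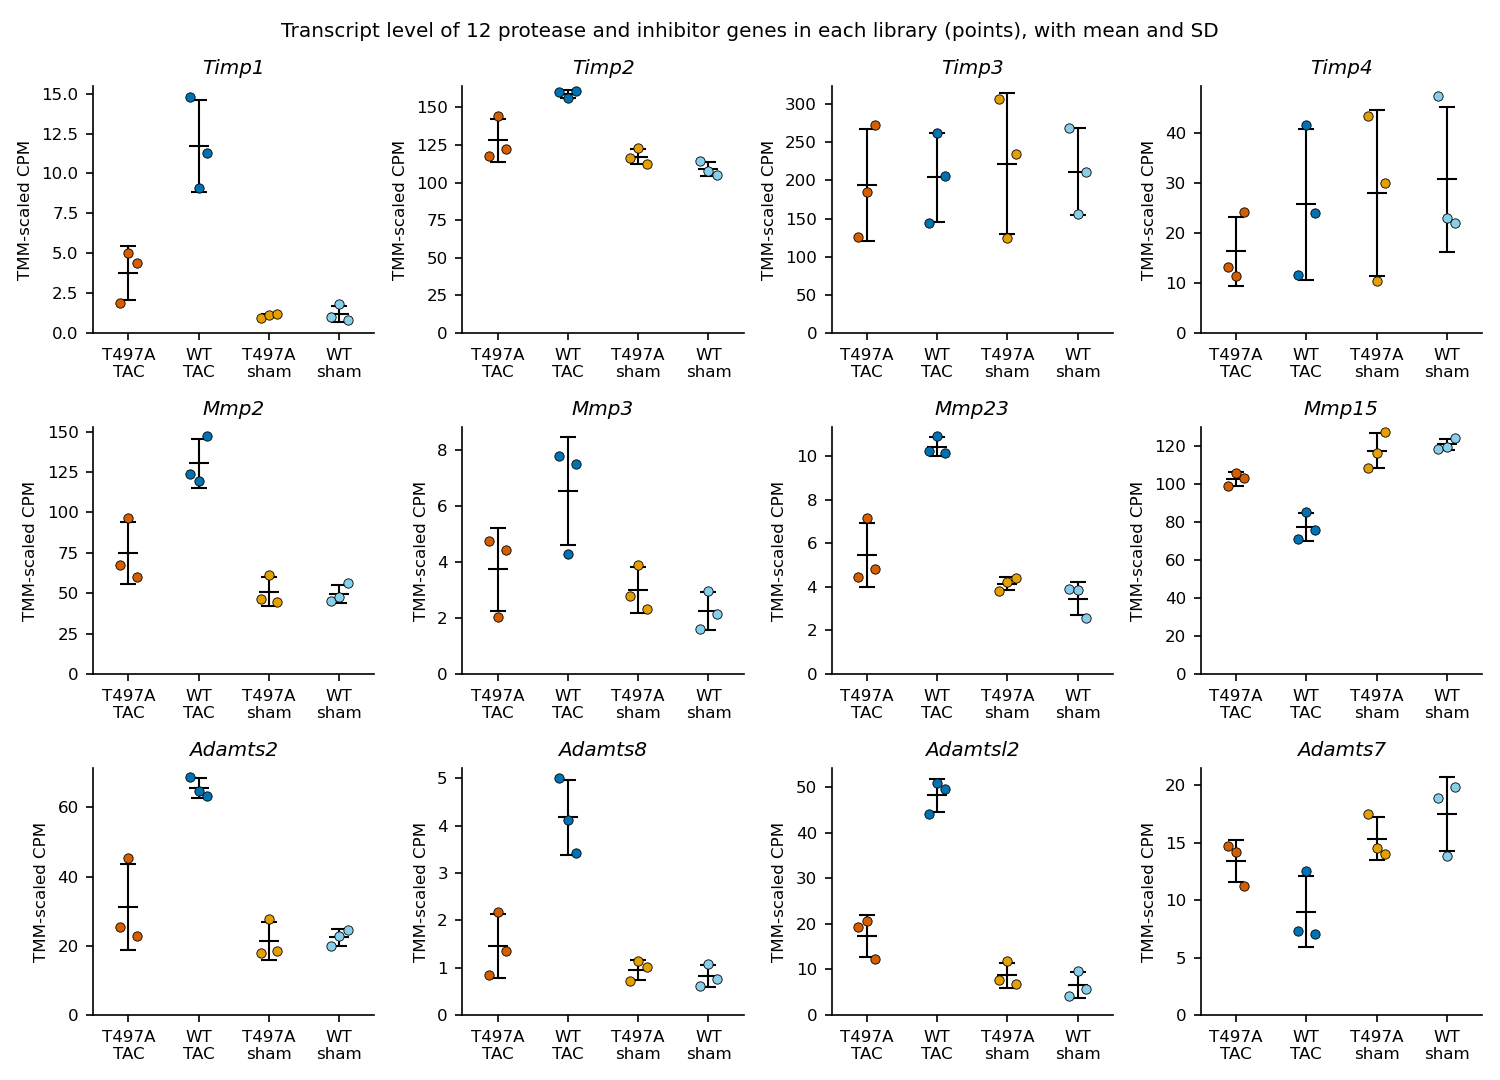
Level of 12 genes in TMM-scaled CPM, each panel from 0, in each of 12 libraries (points) with group mean and SD (bars). Timp1, Timp2, Mmp2, Mmp23, Adamts2, Adamts8 and Adamtsl2 have all WT TAC points above all others, Mmp15 has them below all others, and Timp3 and Timp4 spread widely within each group.

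Of the gelatinases, Mmp2 (ENSMUSG00000031740.8, GRCm38 chr8:92827291-92853420, plus strand) is made by fibroblasts and cuts denatured collagen and basement membrane. It was at 67.4, 96.3 and 60.1 CPM in T497A TAC, 124, 119.5 and 148 in WT TAC, 46.5, 61.1 and 44.9 in T497A sham, against 45.3, 47.9 and 56.0 in WT sham. WT TAC libraries lay above all others, and T497A TAC libraries overlapped the T497A sham libraries, through the sham replicate 2. Mmp2 rose 2.62-fold in WT (1.39 ± 0.18, edgeR adjusted p = 0.000325), and T497A TAC libraries had a 1.75-fold lower level than WT TAC libraries (-0.80 ± 0.18, edgeR adjusted p = 0.0202). The TAC effect in T497A was 0.56 ± 0.18 (edgeR adjusted p = 0.268) and the interaction -0.83 ± 0.25 (edgeR adjusted p = 0.124).

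Mmp9, the other gelatinase, is typical of neutrophils and macrophages. It was at 7.83, 0.290 and 0.162 CPM in T497A TAC, 0.526, 0.300 and 0.559 in WT TAC, 0.647, 0.444 and 0.660 in T497A sham, against 0.739, 1.01 and 0.407 in WT sham. A single library, T497A TAC replicate 1, stood far above the rest with 351 counts, while the other 11 had 7 to 45. The log2 fold change of TAC in T497A was 2.23 ± 1.18 with that library and -1.36 without it, and no comparison called Mmp9 either way. Of 10 neutrophil markers 3 passed the low-count filter, and all 10 summed to 2.14 CPM in that library, against 1.52 and 1.78 CPM in the other T497A TAC libraries. In WT TAC these 10 markers summed to 1.14, 2.26 and 2.52 CPM. The macrophage markers summed to 279 CPM in T497A TAC replicate 1, against 354 and 265 CPM in replicates 2 and 3. The part of either cell type in the Mmp9 values was not tested. In WT the TAC effect on Mmp9 was -0.64 ± 1.22.

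Mmp14, the membrane-bound activator of Mmp2, was at 17.3, 20.9 and 9.96 CPM in T497A TAC, 26.4, 16.2 and 33.3 in WT TAC, 6.69, 20.4 and 7.70 in T497A sham, against 7.18, 13.6 and 10.1 in WT sham. WT TAC libraries did not overlap WT sham libraries, but T497A sham replicate 2 lay among the TAC libraries. Its log2 fold change in WT was 1.29 ± 0.50 (edgeR adjusted p = 0.0929). DESeq2 called it, as did edgeR fitted to the WT groups alone or without T497A sham replicate 2. In T497A the TAC effect was 0.48 ± 0.49.

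Mmp15 (GRCm38 chr8:95352268-95375080, plus strand), the membrane-type MMP with the highest level per length here, was at 99.0, 106 and 103 CPM in T497A TAC, 70.9, 85.4 and 76.0 in WT TAC, 109, 116 and 127 in T497A sham, against 119, 119 and 124 in WT sham. The groups were ordered, with WT TAC below T497A TAC and T497A TAC below all sham libraries, and none of these 3 sets of libraries overlapped. Mmp15 fell 1.56-fold in WT (-0.64 ± 0.08, edgeR adjusted p = 7.84e-05) and was 1.32-fold higher in T497A TAC than in WT TAC (0.41 ± 0.08, edgeR adjusted p = 0.00701). The TAC effect in T497A was -0.19 ± 0.08 (edgeR adjusted p = 0.346) and the interaction 0.45 ± 0.11 (edgeR adjusted p = 0.0605).

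Mmp23 (GRCm38 chr4:155650655-155653384, minus strand), a membrane-anchored MMP without the usual hemopexin domain, was at 4.44, 7.15 and 4.82 CPM in T497A TAC, 10.2, 10.9 and 10.2 in WT TAC, 3.81, 4.22 and 4.40 in T497A sham, against 3.92, 3.87 and 2.58 in WT sham. Its WT TAC libraries agreed closely and lay above all others. It rose 3.01-fold in WT (1.59 ± 0.20, edgeR adjusted p = 8.30e-05), and in T497A the log2 fold change was 0.40 ± 0.19 (edgeR adjusted p = 0.451). The difference between these effects was -1.19 ± 0.27 (edgeR adjusted p = 0.0481), and between T497A TAC and WT TAC the log2 fold change was -0.93 ± 0.19 (edgeR adjusted p = 0.00965).

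Mmp19, a secreted MMP of basement membrane, was at 2.41, 2.66 and 2.41 CPM in T497A TAC, 3.29, 3.35 and 2.87 in WT TAC, 1.99, 2.16 and 1.98 in T497A sham, against 2.01, 1.68 and 1.45 in WT sham. It rose in WT (0.88 ± 0.19, edgeR adjusted p = 0.00355), and in T497A, where the TAC and sham libraries did not overlap either, the value was 0.29 ± 0.19 (edgeR adjusted p = 0.603). Tmem198b, with a mean of 110 counts beside 100 for Mmp19, shares 22.3% of the exon length of Mmp19 on the opposite strand. Whether the counting used strand is not given in the sources used here, so the level of Mmp19 is uncertain.

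Mmp3, Mmp12 and Mmp13 lie in order of position as Mmp13, Mmp12 and Mmp3 in the MMP cluster of chromosome 9, with 61.0 kb between Mmp13 and Mmp12 and 76.3 kb between Mmp12 and Mmp3. Mmp3 is stromelysin-1, which cuts many matrix proteins and opens other MMP precursors. Mmp12 is the macrophage elastase and Mmp13 the main collagenase of mice. The 80 bases before a RefSeq start site of each are shown because of the 25 members with a RefSeq promoter window these 3 had a window with TGANTCA, the letters of the AP-1 element. Mmp12 has 2 windows: the one at the start of the gene, chr9:7344147-7344446, held no TGANTCA, and the one shown belongs to a start site farther inside the gene. Both strands were searched over 250 bases before and 50 after the start. Sequences are from RefSeq on GRCm38.p6, plus strand, at chr9:7445742-7445821 for Mmp3, chr9:7347294-7347373 for Mmp12 and chr9:7272434-7272513 for Mmp13. Capitals mark TGANTCA and, where it lies in the stretch, TATAAA.
Mmp3: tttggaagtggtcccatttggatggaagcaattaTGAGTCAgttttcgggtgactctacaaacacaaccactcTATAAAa
Mmp12: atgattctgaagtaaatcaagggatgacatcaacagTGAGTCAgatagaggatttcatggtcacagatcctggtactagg
Mmp13: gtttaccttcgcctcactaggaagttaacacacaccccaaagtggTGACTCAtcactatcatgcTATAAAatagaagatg

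The AP-1 letters start 46 bases before the start site in Mmp3, 44 in Mmp12 and 35 in Mmp13. TGANTCA was in 3 of 27 member windows (11.1%) and in 7.81% of all 32851 windows, and TATAAA, searched on the sense strand, in 5 of 27 (18.5%) and in 8.32% of all windows. A match describes the letters and shows no binding. Mmp3 was at 4.73, 2.03 and 4.42 CPM in T497A TAC, 7.78, 4.30 and 7.50 in WT TAC, 2.79, 3.88 and 2.31 in T497A sham, against 1.62, 2.95 and 2.15 in WT sham. WT TAC libraries did not overlap WT sham libraries, though WT TAC replicate 2 lay among the T497A TAC values. Mmp3 rose 2.91-fold in WT (1.54 ± 0.35, edgeR adjusted p = 0.00658), with 0.32 ± 0.34 in T497A and -0.81 ± 0.34 between T497A TAC and WT TAC (edgeR adjusted p = 0.167).

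The neighbours of Mmp3 were low and uneven. Mmp12 averaged 0.573 ± 0.635 CPM in T497A TAC, where replicate 1 had no count, 0.539 ± 0.119 in WT TAC, 0.481 ± 0.0601 in T497A sham and 0.371 ± 0.199 in WT sham (SD, n = 3 each). Mmp13 averaged 0.921 ± 0.424, 0.878 ± 0.758, 1.11 ± 0.736 and 0.701 ± 0.262 CPM in the same order. Their TAC effects in WT were 0.53 ± 0.88 and 0.34 ± 0.62 on the log2 scale, and neither was called in any comparison.

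The remaining MMP genes were called in no comparison. Mmp11 (stromelysin-3), Mmp16 and Mmp17 (membrane-type MMPs), Mmp25 (a membrane-type MMP of leukocytes) and Mmp28 (epilysin) had log2 fold changes of TAC in WT of 0.06 ± 0.20, 0.33 ± 0.31, -0.21 ± 0.20, 1.66 ± 0.93 and 0.57 ± 0.26. In T497A the values in the same order were 0.02 ± 0.20, 0.12 ± 0.30, -0.33 ± 0.20, 1.04 ± 0.79 and -0.02 ± 0.26. Mmp25 had 0 to 42 counts per library. Mmp11 shares 155 bases of exon with Chchd10 on the opposite strand, a gene with a mean of 7053 counts, so its level is uncertain.

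Of the 3 procollagen N-propeptidases, which cut the amino-terminal end from fibrillar procollagens so that fibrils can form, Adamts2 (ENSMUSG00000036545.9, GRCm38 chr11:50602084-50807573, plus strand) was the most abundant per length. It was at 25.4, 45.4 and 22.9 CPM in T497A TAC, 68.7, 64.7 and 63.4 in WT TAC, 17.9, 27.6 and 18.5 in T497A sham, against 19.8, 23.0 and 24.7 in WT sham. All WT TAC libraries lay above all others, and T497A TAC replicate 2 stood apart from the other T497A TAC libraries. Adamts2 rose 2.92-fold in WT (1.54 ± 0.25, edgeR adjusted p = 0.00178) and T497A TAC had a 2.10-fold lower level than WT TAC (-1.07 ± 0.25, edgeR adjusted p = 0.0294). In T497A the TAC effect was 0.55 ± 0.25 (edgeR adjusted p = 0.439). Adamts3 and Adamts14 had TAC effects below 0 in WT, -0.53 ± 0.22 and -0.79 ± 0.39, with edgeR adjusted p = 0.106 and 0.159.

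Proteoglycan-cleaving ADAMTS genes numbered 7. Adamts8 (GRCm38 chr9:30942562-30963838, plus strand) rose most and was at 0.848, 2.17 and 1.34 CPM in T497A TAC, 5.00, 4.11 and 3.43 in WT TAC, 0.722, 1.14 and 1.01 in T497A sham, against 0.623, 1.07 and 0.755 in WT sham. WT TAC libraries stood above all others, and T497A TAC libraries overlapped the sham libraries. Its log2 fold change was 2.35 ± 0.34 in WT (edgeR adjusted p = 0.000285), 0.60 ± 0.34 in T497A and -1.52 ± 0.33 between T497A TAC and WT TAC (edgeR adjusted p = 0.0125). The interaction was -1.75 ± 0.48 (edgeR adjusted p = 0.0814). Adamts15 lies 20.1 kb from Adamts8 on chromosome 9 and was at 11.6, 9.25 and 4.45 CPM in T497A TAC, 11.1, 6.05 and 9.76 in WT TAC, 7.19, 8.99 and 7.61 in T497A sham, against 6.26, 6.17 and 8.48 in WT sham. Its libraries overlapped in every comparison, and its TAC effect in WT was 0.37 ± 0.32.

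Adamts1, known for cutting versican and for its expression in endothelium and smooth muscle, was at 25.7, 34.1 and 57.3 CPM in T497A TAC, 38.7, 78.3 and 93.9 in WT TAC, 45.5, 28.7 and 49.4 in T497A sham, against 54.6, 48.8 and 32.6 in WT sham. WT TAC replicate 1 lay below several sham libraries while the other WT TAC libraries lay above all others, and the TAC effect in WT was 0.63 ± 0.41 (edgeR adjusted p = 0.309). Adamts5, an aggrecanase whose gene lies 53.1 kb from Adamts1 on chromosome 16, was at 46.6, 42.0 and 30.2 CPM in T497A TAC, 45.3, 23.4 and 36.9 in WT TAC, 29.8, 57.3 and 38.7 in T497A sham, against 34.9, 42.4 and 40.9 in WT sham. Groups overlapped throughout, with -0.16 ± 0.29 in WT and -0.08 ± 0.29 in T497A. Adamts4, the other aggrecanase, was at 1.23, 0.822 and 0.0927 CPM in T497A TAC, 1.88, 0.346 and 1.63 in WT TAC, 0.398, 1.30 and 0.154 in T497A sham, against 0.231, 0.894 and 0.348 in WT sham. Its libraries spread widely within each group, and its TAC effect in WT was 1.37 ± 0.96 (edgeR adjusted p = 0.336). With strand use in the counting not given, its level is uncertain.

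Adamts9, a protease of versican at the surface of many cells, was at 21.6, 25.2 and 19.6 CPM in T497A TAC, 21.3, 30.4 and 38.8 in WT TAC, 17.6, 24.3 and 13.3 in T497A sham, against 15.9, 19.5 and 18.4 in WT sham. Its WT TAC libraries ranged from just above the WT sham libraries to well above them. The call in WT (0.75 ± 0.24, edgeR adjusted p = 0.0434) held in 3 of the 12 fits that left out 1 library, and was lost with limma-voom and without the low-count filter. Adamts20, known from the pigmentation of mice, was at 0.558, 0.725 and 0.672 CPM in T497A TAC, 2.26, 0.762 and 1.91 in WT TAC, 0.572, 0.361 and 0.396 in T497A sham, against 0.392, 0.626 and 0.465 in WT sham. WT TAC replicates 1 and 3 stood apart, while replicate 2 was near the T497A TAC level. Adamts20 rose 3.31-fold in WT (1.73 ± 0.40, edgeR adjusted p = 0.00675), and between T497A TAC and WT TAC the value was -1.33 ± 0.39 (edgeR adjusted p = 0.0513).

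Adamts7 and Adamts12 are the enzymes known to cut the cartilage oligomeric matrix protein. Adamts7 (GRCm38 chr9:90163069-90208071, plus strand) was at 14.7, 14.2 and 11.3 CPM in T497A TAC, 7.34, 12.5 and 7.06 in WT TAC, 17.5, 14.5 and 14.0 in T497A sham, against 18.9, 13.8 and 19.8 in WT sham. WT TAC libraries lay below all sham libraries, with replicate 2 the nearest to them. It fell 1.95-fold in WT (-0.96 ± 0.22, edgeR adjusted p = 0.00658), and the TAC effect in T497A was -0.20 ± 0.21 (edgeR adjusted p = 0.798). Adamts12 was at 3.39, 4.98 and 2.83 CPM in T497A TAC, 5.24, 3.83 and 4.71 in WT TAC, 1.99, 4.77 and 2.42 in T497A sham, against 2.12, 3.57 and 3.31 in WT sham. Its WT TAC and WT sham libraries did not overlap, and the log2 fold change was 0.61 ± 0.32 (edgeR adjusted p = 0.187).

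Adamts10 and Adamts6 act on fibrillin microfibrils and on cell contacts. Adamts10 was at 10.4, 10.1 and 9.87 CPM in T497A TAC, 11.0, 15.4 and 13.8 in WT TAC, 8.01, 8.93 and 8.18 in T497A sham, against 10.3, 6.90 and 7.12 in WT sham. It rose in WT (0.73 ± 0.16, edgeR adjusted p = 0.00426) with no overlap of TAC and sham libraries, and the value in T497A was 0.27 ± 0.16, also with no overlap (edgeR adjusted p = 0.538). Adamts6 had 0.14 ± 0.25 in WT and 0.50 ± 0.25 in T497A. Adamts17 and Adamts19, whose levels were among the lowest, had -0.21 ± 0.48 and -0.02 ± 0.48 in WT and 1.11 ± 0.51 and 0.05 ± 0.49 in T497A. None of these 3 was called in any comparison.

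Adamtsl2 (ENSMUSG00000036040.14, GRCm38 chr2:27079379-27108981, plus strand) encodes a secreted protein without protease that binds fibrillin and the latent TGF-beta binding protein 1 and whose loss causes geleophysic dysplasia in humans. It was at 19.2, 20.7 and 12.2 CPM in T497A TAC, 44.1, 50.9 and 49.6 in WT TAC, 7.69, 11.9 and 6.73 in T497A sham, against 4.16, 9.65 and 5.66 in WT sham. Every WT TAC library was above every T497A TAC library, and every T497A TAC library above every sham library. The log2 fold change was 0.99 ± 0.32 for TAC in T497A (edgeR adjusted p = 0.283) and 2.89 ± 0.34 for TAC in WT (edgeR adjusted p = 0.000284). Between T497A TAC and WT TAC it was -1.47 ± 0.31 (edgeR adjusted p = 0.0211), and the interaction was -1.90 ± 0.46 (edgeR adjusted p = 0.075). DESeq2 and limma-voom called that interaction. The 80 bases before its RefSeq start site, plus strand of GRCm38.p6 at chr2:27079299-27079378, are shown for the TATAAA in capitals, which starts 30 bases before the start.
Adamtsl2: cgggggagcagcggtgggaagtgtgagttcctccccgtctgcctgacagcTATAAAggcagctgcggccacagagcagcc

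Adamtsl5, which binds fibrillin, was at 66.1, 72.4 and 58.1 CPM in T497A TAC, 83.6, 82.6 and 100.5 in WT TAC, 55.4, 54.9 and 59.2 in T497A sham, against 53.7, 57.6 and 54.8 in WT sham. WT TAC libraries stood above all others. Adamtsl5 rose in WT (0.68 ± 0.09, edgeR adjusted p = 0.000165) and was lower in T497A TAC than in WT TAC (-0.44 ± 0.09, edgeR adjusted p = 0.0112), with 0.21 ± 0.09 for TAC in T497A (edgeR adjusted p = 0.382). Adamtsl4, a microfibril protein whose loss displaces the lens in humans, was called in no comparison and its TAC effect in WT was -0.08 ± 0.25. Adamtsl1 and Adamtsl3 had 0.17 ± 0.27 and 0.06 ± 0.28. In T497A the 3 values were -0.14 ± 0.25, -0.16 ± 0.27 and 0.06 ± 0.28, and none was called in any comparison.

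Genes listed as regulators of these proteases also moved after TAC in WT. Of 20 tested genes from a list of other inhibitors, activators and clearance receptors, 10 rose and 2 fell, beside 12.3% and 12.6% of all tested genes. The median log2 fold change was 0.60, against 0.01 over all genes. Serpinf1, of the serpin family, had 1.95 ± 0.18 and the docking receptor Cd44 1.69 ± 0.23. Ccbe1, a partner of Adamts3 in the processing of a lymphatic growth factor, had -1.69 ± 0.52. Their edgeR adjusted p ran from 2.94e-05 for Serpinf1 to 0.0432 for Ccbe1. In T497A 0 of 20 were called after TAC (median 0.16), beside 0.114% of all tested genes. Lower in T497A TAC than in WT TAC were 8, beside 4.06% of all tested genes. They included Serpinf1 at -1.11 ± 0.17, the procollagen C-proteinase enhancer Pcolce at -0.97 ± 0.15 and Cd44 at -0.94 ± 0.22. The interaction was called for Serpinf1 (-1.27 ± 0.25, edgeR adjusted p = 0.0338), Serpine2 (-1.09 ± 0.16, edgeR adjusted p = 0.00747) and Pcolce (-0.99 ± 0.21, edgeR adjusted p = 0.0407). These 3 of 20 stood beside 0.679% of all tested genes called lower. Serpine2, an inhibitor of thrombin and plasminogen activators, averaged 29.5 ± 2.25 CPM in T497A TAC and 55.5 ± 7.06 CPM in WT TAC (SD, n = 3 each). After sham 0 of the 20 differed between genotypes.

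Other proteases of the matrix moved in both directions. Of 25 tested, 10 rose and 3 fell after TAC in WT (median 0.36), beside 12.3% and 12.6% of all tested genes. Tll2, a tolloid-like protease, fell (-2.26 ± 0.56), while the membrane proteases Adam8 and Adam12 rose (2.14 ± 0.66 and 1.83 ± 0.39) at levels under 3 CPM, and the collagen-degrading cathepsin gene Ctsk rose (1.58 ± 0.17). Their edgeR adjusted p ran from 4.07e-05 for Ctsk to 0.03 for Adam8. In T497A, Ctss, the cathepsin of antigen-presenting cells, rose after TAC (0.87 ± 0.15, edgeR adjusted p = 0.0446). It was the 1 called gene of the 25, beside 0.114% of all tested genes. Ctss was at 23.4 ± 5.30 CPM in T497A TAC and 12.8 ± 1.04 CPM in T497A sham (SD, n = 3 each). It also rose in WT (1.05 ± 0.15, edgeR adjusted p = 0.000216), with 20.5 ± 2.23 CPM in WT TAC and 9.85 ± 0.989 CPM in WT sham (SD, n = 3 each). Between T497A TAC and WT TAC 3 were higher and 5 lower, beside 4.64% and 4.06% of all tested genes. Among them Tll2 (2.03 ± 0.56) and the neprilysin gene Mme (0.93 ± 0.25) were higher, and Ctsk (-0.83 ± 0.17) and Adam15 (-0.65 ± 0.13) lower. Ctsk, 1 of the 25, passed the interaction (-1.04 ± 0.24, edgeR adjusted p = 0.0497), beside 0.679% of all tested genes called lower.

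Genes for known substrates of proteases in these families rose widely in WT. Of 22 tested, 17 rose and 1 fell after TAC (median 1.67), beside 12.3% and 12.6% of all tested genes. Cilp, a cartilage-type matrix protein, Comp, the proteoglycan Fmod and the collagen gene Col1a1 had the largest changes, 4.45 ± 0.59, 3.59 ± 0.52, 2.68 ± 0.52 and 2.08 ± 0.30. The gene that fell was Ltbp1 (-0.52 ± 0.12), chosen after its value was seen. In T497A 0 of 22 were called (median 0.48), beside 0.114% of all tested genes. Lower in T497A TAC than in WT TAC were 6, beside 4.06% of all tested genes. They included Cilp (-2.05 ± 0.53), Col1a1 (-1.29 ± 0.30), the proteoglycan Bgn (-1.15 ± 0.21) and Col1a2 (-1.06 ± 0.17). Col1a2 averaged 263 ± 71.9 CPM in T497A TAC and 547 ± 14.5 CPM in WT TAC (SD, n = 3 each) and passed the interaction (-1.11 ± 0.24, edgeR adjusted p = 0.0481). This was 1 of 22, beside 0.679% of all tested genes called lower. Cilp and Comp are also among the activated fibroblast markers and Col1a2 among the fibroblast markers, so these lists are not separate evidence. After sham 0 of the 25 proteases and 0 of the 22 substrates differed between genotypes.

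Timp3 and Timp4 were highest in the same library of every group. In each of the 4 groups the library with the highest Timp3 also had the highest Timp4 and the lowest Mmp14, Mmp13, Adamts5 and Adamts12. It was replicate 3 of T497A TAC, replicate 2 of WT TAC and replicate 1 of each sham group. Of the 38 genes other than Timp3, 1 (2.63%) had the same highest library in all 4 groups and 4 (10.5%) had their lowest there, beside 3.41% and 3.47% of the other tested genes, so a shared highest library was no more frequent among the members than among all genes. The lower libraries of Timp3 and Timp4 did not have the same order in T497A TAC and WT sham. The pattern was noticed after the values were seen, and the shares are descriptions.

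The order of the libraries was also read in 15 genes of the circadian clock, a list chosen after the data were seen. Per1, Per2, Cry1 and Tef, repressors and an output factor of the clock, were highest in the library with the highest Timp3 in all 4 groups, and Nr1d1, a clock repressor of a different phase, was lowest there. These were 4 (26.7%) and 1 (6.67%) of the 15, beside the 3.41% and 3.47% given above. The other 10 did neither in all 4 groups: Per3 and Cry2 were highest there in 3 groups, Ciart, Hlf and Nr1d2 in 2 and Dbp and Bhlhe41 in 1, while Arntl, Clock and Npas2 were lowest there in 3. Per2 was at 5.20, 14.5 and 36.5 CPM in T497A TAC, 8.22, 29.3 and 15.1 in WT TAC, 41.2, 5.27 and 29.9 in T497A sham, against 37.8, 9.47 and 18.4 in WT sham. Nr1d1 was at 122, 115 and 66.6 CPM in T497A TAC, 136, 40.0 and 92.4 in WT TAC, 29.6, 120.3 and 79.4 in T497A sham, against 46.6, 124 and 79.1 in WT sham. The labels used here give no time of day at which tissue was taken.

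**Figure D4:**
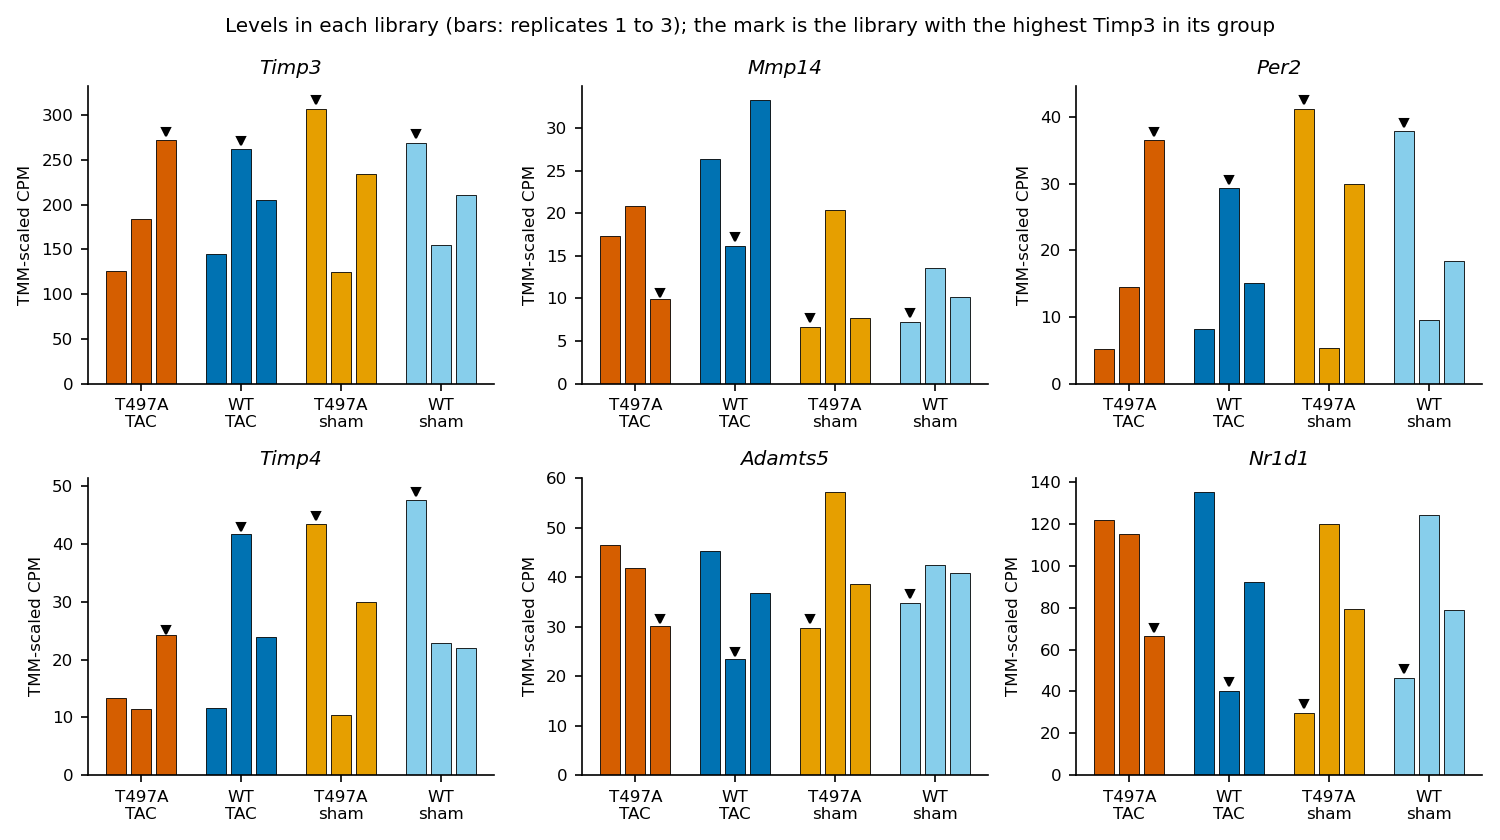
Level of Timp3, Timp4, Mmp14, Adamts5 and the clock genes Per2 and Nr1d1 in TMM-scaled CPM in each library (bars, replicates 1 to 3 of each group from left to right); the triangle marks the library with the highest Timp3 of its group. That library also has the highest Timp4 and Per2 and the lowest Mmp14, Adamts5 and Nr1d1 of its group.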

How the data were processed

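The authors deposited raw read counts per gene, whole numbers without normalization, for 12 mouse left ventricle libraries, with 1 batch date in the labels. The submitters' processing notes list the mm10 build, limma 3.50.3, Subread 1.6.3, featureCounts, STAR 2.7.3a and Trim Galore 0.6.4. Settings, annotation release, strand use and treatment of reads with several matches were not given in the sources used here. Groups were taken from the labels, and replicates are numbered in accession order.

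Genes kept by edgeR's filterByExpr (15764, minimum count 10) were tested in R 4.3.3 with edgeR 4.0.16: TMM scaling, glmQLFit with robust estimation and glmQLFTest in 1 model over the 4 groups. P-values were Benjamini-Hochberg adjusted over all tested genes, with a threshold of 0.05. The SE of a log2 fold change was taken as its size over the root of the test's F value. CPM use TMM-scaled library sizes, and CPM per kb divide by the joined length of all annotated exons of a gene, not of 1 transcript. Exons, positions and overlaps are those of GENCODE on GRCm38. Alternatives used DESeq2 1.42.0, limma 3.58.1 (limma-voom), RLE factors, other filters and each library left out. The code was tested on simulated data. Replicates were compared before averaging, and chi-square over its degrees of freedom was 21.3 to 57.5 for every pair.

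The members, gene lists and tests were chosen with earlier results of these data known. Library values are given for 17 genes set by rule and for the called members among the 8 largest rises and 8 largest falls of each comparison, and for Mmp16 and Adamts17, chosen after their values were seen. Of each other list up to 4 called genes with the largest change are named, and those called in the interaction, except items that are not reported here. Promoter windows are those of RefSeq for 25 of the 39 genes. Protein sequences were not used here.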

Additional observations from a re-analysis of the deposited data

Results flagged for a closer look

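In 1 of the 39 members and 5 of the genes listed as their regulators, other proteases and substrates, the TAC effect differed between the genotypes by edgeR's test of the interaction (TAC effect in T497A minus TAC effect in WT, log2 scale, 3 libraries per group). Of all 15764 tested genes 248 did, 141 higher and 107 lower. The 5 were 3 of 20 tested regulators, 1 of 25 other proteases and 1 of 22 substrates. The values were -1.19 for Mmp23, -1.09 for Serpine2, -0.99 for Pcolce, -1.27 for Serpinf1, -1.04 for Ctsk and -1.11 for Col1a2, and each TAC effect was above 0 in WT and smaller in T497A. The edgeR adjusted p was 0.0481 for Mmp23 and between 0.00747 for Serpine2 and 0.0497 for Ctsk among the others. The Mmp23 call held in 1 of the 12 fits that each left out 1 library. The calls of the other 5 genes were not checked under the alternatives. Mmp23 was above every WT sham library in 3 of 3 WT TAC libraries and above every T497A sham library in 3 of 3 T497A TAC libraries.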

How the results depend on the processing

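The 15 genes called after TAC in WT were 13 to 16 under every alternative run, and no called log2 fold change reversed. The count of 0 for TAC in T497A was 1 with DESeq2, 1 without the low-count filter and 0 to 1 with each library left out. Between genotypes after sham it was 0 under every alternative. The 9 between T497A TAC and WT TAC were 4 to 9 with each library left out and 6 with only these groups fitted. The interaction count of 1 was 9 with DESeq2, 5 without the low-count filter, 2 with limma-voom and 0 to 6 with each library left out (6 without T497A TAC replicate 2, 2 without WT TAC replicate 2, and 0 without any of 9 other libraries). A covariate was added after seeing the data, log2 CPM of Arntl minus that of Per2. It gave 15, 0, 0, 9 and 3 called genes in the order of these comparisons. Of the first 15, 14 were shared with the main fit, with Adamts9 lost and Mmp14 gained. The last 3 were Mmp23, Adamtsl2 and Mmp15. The cause of these differences was not tested. With a mean raw count of 100 or more, 27 of the 39 genes remained. The MMP to TIMP ratio depends on its largest terms: without Timp3 it was 1.33 in T497A TAC, 1.19 in WT TAC, 1.29 in T497A sham and 1.32 in WT sham, and without Mmp2 it was 0.498 in T497A TAC, 0.373 in WT TAC, 0.512 in T497A sham and 0.511 in WT sham. No paired analysis was possible because all titles carry the same replicate number. Mean counts were lowest for Mmp25, Mmp12, Adamts17, Adamts19, Adamts4 and Adamts20, at 11.5 to 34.8 per library.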
